A study of Mus musculus with 23 samples.

Results

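The mast cell and basophil genes described here are the 8 genes Prss34, Mcpt8, Cpa3, Gzmb, Fcer1a, Ms4a2, Fcer1g and Hdc, picked by symbol from the 24454 genes of the deposited count table. All 8 were found, with a count, which can be 0, in each of the 23 libraries. The libraries hold RNA of stem and progenitor cells from the bone marrow of C57BL/6 mice that carry the SclCre and V617F transgenes (V617F) and of wild-type mice (WT), both given tamoxifen for 5 days and analysed 12 weeks later. In SclCre;V617F mice, tamoxifen switches on the mutant kinase JAK2-V617F where the Scl-driven Cre is active, and the share of sorted cells that carried it is not stated in the labels. The groups were 3 libraries each of V617F and WT megakaryocyte progenitors (MkP, Sca-1-negative with CD150 and CD41), and 3 each of V617F and WT long-term stem cells (LT-HSC, Sca-1-positive and CD48-negative with CD150). The others were the CD41-positive part of the LT-HSC gate (3 V617F and 2 WT libraries) and its CD41-negative part (3 V617F and 3 WT libraries). Every gate was lineage-negative and Kit-positive. MkP libraries came from females. V617F LT-HSC came from males and WT LT-HSC from females, so sex and genotype cannot be told apart there, and in the CD41 fractions V617F library 2 was male and the others female. The labels do not give the age of the mice. MkP and LT-HSC libraries were made with SMART-Seq v2 and the CD41 fractions with v4, so protocol and population cannot be told apart and levels were not compared across them.

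Mast cells and basophils are granulated cells that carry the high-affinity receptor for IgE and release histamine and proteases when it is crosslinked. The receptor has a ligand-binding alpha chain (Fcer1a), a signal-amplifying beta chain (Ms4a2) and a signalling gamma chain (Fcer1g), which other Fc receptors of myeloid cells also use. In the mouse the serine proteases Prss34 (mast cell protease 11) and Mcpt8 mark basophils, the carboxypeptidase Cpa3 is a granule enzyme of both cell types, and Hdc makes histamine from histidine. Gzmb, granzyme B, is best known from cytotoxic lymphocytes but is also made by mast cells. Both lineages arise from marrow progenitors that share the transcription factor GATA2 with early stem and megakaryocyte cells.

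In the GRCm38.p6 build of RefSeq (the build called mm10), Prss34 (Entrez 328780) lies at chr17:25298394-25300168 and Cpa3 (12873) at chr3:20215616-20242209. Mcpt8 (17231, chr14:56082163-56085499) and Gzmb (14939, chr14:56258836-56262334) sit near each other among related serine protease genes. How reads matching several of these were counted is not given in the sources used here, so their counts are uncertain to that extent. Fcer1a (14125) lies at chr1:173221269-173227232, Fcer1g (14127) at chr1:171229572-171234349, Ms4a2 (14126) at chr19:11615517-11623790 and Hdc (15186) at chr2:126593659-126624025. No annotated gene overlapped these apart from microRNA and predicted genes within Mcpt8 (1 gene) and Cpa3 (3 genes).

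The 250 bases before the start of the 5 genes that were higher in WT MkP than in WT LT-HSC are printed next, in the gene's own direction, because all 5 passed in the same comparison. Capitals mark the letters GATAA, the core of the site that GATA factors bind, or TTATC, the same letters on the other strand. The windows are chr17:25298144-25298393 (plus strand) for Prss34, chr14:56085198-56085447 (minus) for Mcpt8, chr1:173227230-173227479 (minus) for Fcer1a, chr19:11623720-11623969 (minus) for Ms4a2 and chr2:126618679-126618928 (minus) for Hdc. Those of Mcpt8 and Hdc lie within the gene span given above, because the RefSeq promoter table takes a start inside it. For the same reason those of Ms4a2 and Fcer1a lie partly within their spans, Fcer1a by its last few bases only. The Ms4a2 span ends at 11623790, so the Ms4a2 motifs 37 and 10 bases before the start lie inside it.
Prss34: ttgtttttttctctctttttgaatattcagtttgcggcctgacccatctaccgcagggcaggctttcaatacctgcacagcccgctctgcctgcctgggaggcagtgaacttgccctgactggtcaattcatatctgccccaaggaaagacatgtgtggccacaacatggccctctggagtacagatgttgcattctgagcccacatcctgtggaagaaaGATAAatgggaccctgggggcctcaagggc
Mcpt8: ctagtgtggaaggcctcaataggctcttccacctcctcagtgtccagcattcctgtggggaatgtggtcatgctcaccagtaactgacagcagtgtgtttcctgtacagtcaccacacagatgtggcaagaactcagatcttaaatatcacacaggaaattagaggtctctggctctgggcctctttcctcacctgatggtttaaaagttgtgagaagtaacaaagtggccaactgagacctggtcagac
Fcer1a: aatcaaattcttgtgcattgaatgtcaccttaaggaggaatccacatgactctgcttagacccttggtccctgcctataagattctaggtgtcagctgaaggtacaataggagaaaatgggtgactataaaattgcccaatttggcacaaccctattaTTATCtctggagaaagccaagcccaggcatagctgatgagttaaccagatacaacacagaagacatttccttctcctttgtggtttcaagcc
Ms4a2: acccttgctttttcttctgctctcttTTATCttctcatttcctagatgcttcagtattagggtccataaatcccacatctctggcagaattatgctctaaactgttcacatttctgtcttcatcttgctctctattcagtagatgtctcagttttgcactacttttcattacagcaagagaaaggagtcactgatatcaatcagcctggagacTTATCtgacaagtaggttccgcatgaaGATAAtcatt
Hdc: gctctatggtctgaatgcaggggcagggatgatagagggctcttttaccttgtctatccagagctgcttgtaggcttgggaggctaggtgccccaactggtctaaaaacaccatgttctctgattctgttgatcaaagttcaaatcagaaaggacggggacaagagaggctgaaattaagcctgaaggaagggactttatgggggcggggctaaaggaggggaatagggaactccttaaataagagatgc
Prss34 holds 1 such motif, 30 bases before the start. Fcer1a holds 1 on the other strand, 92 bases before the start, and Ms4a2 holds 3, at 224, 37 and 10 bases. Cpa3, not printed, holds 1 at 45 bases, and no match was found in the windows of Mcpt8, Gzmb, Fcer1g and Hdc. Thus 4 of 8 genes (50%) hold the motif, and 22.6% of all 32851 RefSeq promoter windows of this length do. At least 2 copies stood in 1 of the 8 and in 4.28% of all windows. A match is a description of the letters and not a site.

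The libraries held between 17.6 and 49.2 M counts (M for mega). Each V617F MkP library had counts for 14634 to 15167 genes, against 11483 to 12463 in WT MkP, and the 11 libraries of the CD41 fractions for 15819 to 16587. Levels are CPM, the counts divided by the TMM-scaled total of the library in M, and 3 counts in a library, taken as the floor, are 0.0597 to 0.156 CPM with SMART-Seq v2 and 0.102 to 0.171 CPM with v4, by counting error only. Sums of marker genes of each population went with the labels. The summed level of 9 megakaryocyte genes, among them Pf4 and Itga2b (CD41), was 5805 to 7326 CPM in V617F MkP and 5428 to 5938 CPM in WT MkP, against 1271 to 1359 CPM in V617F LT-HSC and 873 to 3401 CPM in WT LT-HSC. The low end of WT LT-HSC is library 30, which stood apart from libraries 31 and 32. Of 8 stem cell markers, the sum was 684 to 777 CPM in V617F LT-HSC and 552 to 988 CPM in WT LT-HSC. In V617F MkP it was 149 to 161 CPM and in WT MkP 93.4 to 162 CPM. The 9 megakaryocyte genes summed to 2117 to 3050 CPM in V617F CD41-positive HSC, against 993 to 1194 CPM in V617F CD41-negative HSC. In WT these sums were 3414 to 3669 CPM in CD41-positive HSC, against 1664 to 1808 CPM in CD41-negative HSC. For Cpa3 and Fcer1g, of which WT LT-HSC library 30 held the highest level among the WT LT-HSC libraries, values are given with and without that library. Nothing in the labels says that libraries of a group came from separate mice, so the p-values measure the spread between these libraries. In bulk RNA, fewer cells of a type and less RNA per cell cannot be told apart.

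The members were compared between MkP and LT-HSC, which asks where in the sorted hierarchy these transcripts appear. The fold changes are log2 values given with their SE. In WT mice, 5 of the 8 passed the test and all 5 were higher in MkP: the basophil proteases Prss34 and Mcpt8, the receptor chains Ms4a2 and Fcer1a, and the histamine enzyme Hdc. Across the 14281 genes tested, 8.90% passed and 2.32% passed as higher. Cpa3, Gzmb and Fcer1g did not pass. The median log2 fold change of the 8 was 8.18, or 6.70 with Mcpt8 and Gzmb, which stood at 0 in WT LT-HSC, set to their lower bounds, against a median of -0.20 over all genes tested. Prss34, Mcpt8, Ms4a2 and Gzmb had few or no reads in LT-HSC and passed the filter on low counts through MkP. For these genes a higher level in MkP was largely fixed by the filter. The count of 5 and the median are therefore no independent evidence of a direction.

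Prss34 had 40.3, 136 and 35.3 CPM in WT MkP libraries 30, 31 and 32, against 0, 0.0283 and 0 CPM in WT LT-HSC libraries 30, 31 and 32. The WT LT-HSC value is a single read. Over summed counts the ratio was 8104 with an exact 95% counting interval of 1454 to 320110, and the adjusted p by edgeR's quasi-likelihood test was 7.88e-04. Mcpt8 had 14.1, 8.42 and 25.1 CPM in WT MkP and no read in WT LT-HSC, which makes it at least 179-fold higher (adjusted p = 0.00441). All WT MkP libraries held both proteases well above any WT LT-HSC library. Ms4a2, the beta chain, had 15.3, 16.4 and 13.4 CPM in WT MkP, the tightest of the 5, against 0.0407, 0 and 0 CPM in WT LT-HSC. Its WT LT-HSC value is also 1 read, and the ratio of summed counts was 1670 with an interval of 299 to 66016 (adjusted p = 0.0132). Fcer1a, the alpha chain that binds IgE, had 14.8, 33.4 and 12.6 CPM in WT MkP and 0, 0 and 0.696 CPM in WT LT-HSC (log2 6.36 ± 1.49 SE, adjusted p = 0.0234). No library of one population reached the range of the other for either chain. The few WT LT-HSC reads set the size of these fold changes. Over omissions of single libraries the log2 fold change ran from 11.45 (without WT MkP library 31) to 14.07 (without WT LT-HSC library 31) for Prss34, from 9.29 (without WT LT-HSC library 32) to 11.89 (without WT LT-HSC library 30) for Ms4a2, and up to 12.19 (without WT LT-HSC library 32) for Fcer1a, all still called. A fit of only these 2 groups kept Prss34 and lost Mcpt8 (adjusted p = 0.0831), Ms4a2 (0.0895) and Fcer1a (0.293).

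Hdc had 81.1, 23.6 and 114 CPM in WT MkP, against 5.82, 9.45 and 2.80 CPM in WT LT-HSC (log2 3.60 ± 0.93 SE, adjusted p = 0.0332). The groups did not overlap, but the call was close to the threshold and failed in 9 of 19 alternatives, among them without WT MkP library 30 (log2 3.48, adjusted p = 0.0597) or 32 (log2 3.09, adjusted p = 0.0808), without WT LT-HSC library 30 (log2 3.59, adjusted p = 0.0615) or 32 (log2 3.22, adjusted p = 0.0655), and without V617F MkP library 1 (adjusted p = 0.0555) or 2 (adjusted p = 0.0541) or V617F LT-HSC library 8 (adjusted p = 0.0550), which share the estimate of the spread. Gzmb had 3.05, 31.9 and 0 CPM in WT MkP and no read in WT LT-HSC, so it was at least 131-fold higher by means, with an adjusted p of 0.0562. That value rested on WT MkP library 31, which held 1280 of the 1401 Gzmb reads of the group. Without library 31 the log2 fold change was 8.52, against 11.50 with it. Without WT MkP library 32, where Gzmb was at 0, the adjusted p was 0.0179. DESeq2 (1.96e-04) and a fit with no filter on low counts (0.0458) also called it. In all, 5 members had libraries that did not overlap, all higher in MkP, as did 8.39% of the genes tested.

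Cpa3 and Fcer1g were already present in WT LT-HSC. Cpa3 had 32.4, 79.2 and 58.9 CPM in WT MkP and 53.0, 5.15 and 13.5 CPM in WT LT-HSC (log2 1.25 ± 0.78 SE, adjusted p = 0.337). The groups overlapped through WT LT-HSC library 30, and without it the log2 fold change was 2.60 with an adjusted p of 0.0454. Fcer1g had 65.3, 72.7 and 77.8 CPM in WT MkP, against 382, 92.4 and 74.5 CPM in WT LT-HSC (log2 -1.35 ± 0.57 SE, adjusted p = 0.147). Its level in WT LT-HSC library 30 was far above the other 5 WT libraries of these populations, and without it the log2 fold change was -0.21 with an adjusted p of 0.814.

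In V617F mice the same comparison called none of the 8 by edgeR's quasi-likelihood test, where 1.09% of genes passed. At an unadjusted p under 0.05, 7 of the 8 passed, and DESeq2 called 4 (Prss34, Mcpt8, Fcer1a and Ms4a2) and limma-voom 2 (Mcpt8 and Ms4a2). The 1.09% does not apply to these counts, for which the share of all genes is not given here. All 8 had a positive log2 fold change, with a median of 4.26, or 3.48 with Gzmb at its bound, against -0.06 over all genes. For Prss34, Mcpt8, Ms4a2 and Gzmb that direction was largely fixed by the filter on low counts, as said above. The libraries of 7 members did not overlap, all higher in MkP, as did 17.0% of all genes. Fcer1g was the exception.

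Among the receptor chains, Fcer1a had 24.1, 29.0 and 48.7 CPM in V617F MkP, against 1.74, 1.87 and 2.62 CPM in V617F LT-HSC (log2 4.03 ± 1.33 SE, adjusted p = 0.236). Ms4a2 had 2.88, 4.99 and 2.69 CPM in V617F MkP, against 0, 0.468 and 0 CPM in V617F LT-HSC. The groups of both genes stood apart. Fcer1g had 32.6, 22.9 and 44.8 CPM in V617F MkP and 30.7, 34.6 and 17.0 CPM in V617F LT-HSC, which overlapped (log2 0.29 ± 0.56 SE, adjusted p = 0.983). Among the proteases, Prss34 had 4.81, 2.29 and 3.96 CPM in V617F MkP, against 0.331, 0 and 0.0833 CPM in V617F LT-HSC (log2 4.66 ± 1.11 SE, adjusted p = 0.0795). Mcpt8 had 3.35, 2.29 and 11.5 CPM in V617F MkP, against 0.0829, 0 and 0.208 CPM in V617F LT-HSC (log2 5.80 ± 1.41 SE, adjusted p = 0.114). Both stood near the floor in V617F LT-HSC, and every V617F MkP library was above every V617F LT-HSC one. Without WT LT-HSC library 30, which shares the estimate of the spread, Prss34 (adjusted p = 0.0461) and Mcpt8 (adjusted p = 0.0475) passed, and without WT LT-HSC library 32 Fcer1a did (adjusted p = 0.0301). Cpa3 had 12.4, 20.3 and 46.7 CPM in V617F MkP and 4.72, 5.87 and 5.46 CPM in V617F LT-HSC. Gzmb had 0.516, 0.443 and 2.15 CPM in V617F MkP and no read in V617F LT-HSC, at least 7.69-fold higher. Hdc had 5.28, 4.91 and 15.3 CPM in V617F MkP and 3.23, 0.364 and 1.46 CPM in V617F LT-HSC. Library 3 was the highest V617F MkP library for 6 of the 8 genes, the exceptions being Prss34 and Ms4a2. A fit of only the V617F MkP and V617F LT-HSC libraries called 7 of the 8, all but Fcer1g, with adjusted p-values from 5.58e-05 for Fcer1a to 0.0341 for Hdc. That fit called 2972 genes in all, against 156 in the fit of all SMART-Seq v2 groups.

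**Figure D1:**
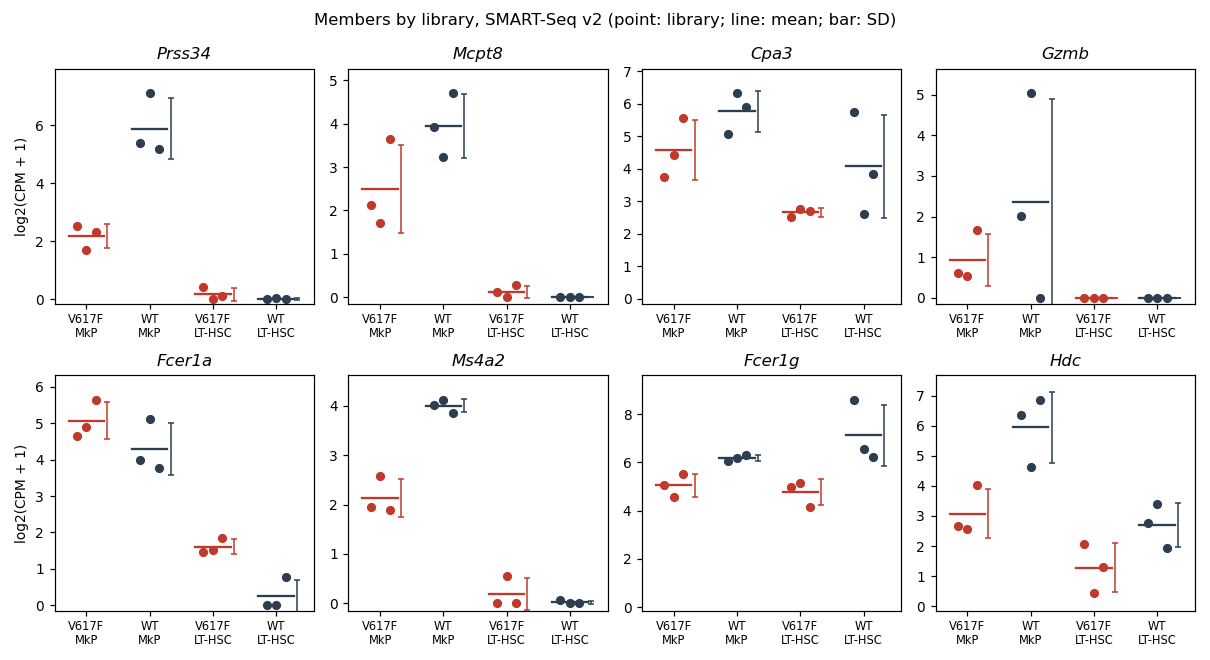
Level of each gene in MkP and LT-HSC libraries, as log2(CPM + 1), with V617F in red and WT in dark blue; points are libraries, lines are means and bars are SD. Prss34, Mcpt8 and Ms4a2 are near 0 in LT-HSC and present in MkP, Fcer1a is at 1.74 to 2.62 CPM in V617F LT-HSC and at 0 to 0.696 CPM in WT LT-HSC, and Fcer1g is present in both populations.

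The effect of V617F within MkP was read next. None of the 8 passed edgeR's quasi-likelihood test, where 1.75% of the 14281 genes passed and 0.126% passed as lower. At an unadjusted p under 0.05, Prss34 and Hdc passed. DESeq2 called both, among 1137 genes it called in all, and limma-voom called Prss34. The 1.75% does not apply to these counts. The share of all genes at an unadjusted p or under limma-voom is not given here. Of the 8, 7 had a negative log2 fold change, with a median of -1.78 over the 8 and of 0.08 over all genes. The libraries of 4 members did not overlap (Prss34, Ms4a2, Fcer1g and Hdc), all lower in V617F, as did 9.99% of all genes.

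Prss34 had 4.81, 2.29 and 3.96 CPM in V617F MkP, against 40.3, 136 and 35.3 CPM in WT MkP. Every V617F MkP library was below every WT one, and the mean was 19.1-fold lower in V617F. The log2 fold change was -4.25 ± 1.05 (SE) with an adjusted p of 0.0637. It passed in 4 of 18 alternatives, namely DESeq2 (adjusted p = 6.95e-06), limma-voom (0.0465), a fit of only the 2 groups (0.0341) and omission of WT LT-HSC library 30 (0.0375). Over omissions of single libraries the log2 fold change ran from -4.52 (without WT MkP library 32) to -3.32 (without WT MkP library 31). The companion basophil protease Mcpt8 had 3.35, 2.29 and 11.5 CPM in V617F MkP and 14.1, 8.42 and 25.1 CPM in WT MkP, which overlapped (log2 -1.47 ± 1.14 SE, adjusted p = 0.666). Per length of transcript, Prss34 stood at 0.990, 0.689 and 0.237 times Mcpt8 in V617F MkP libraries 1, 2 and 3, and at 1.98, 11.1 and 0.970 times in WT MkP libraries 30, 31 and 32. The 2 proteases thus did not keep 1 ratio, with WT library 31 highest for Prss34 and lowest of the WT MkP libraries for Mcpt8.

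Hdc had 5.28, 4.91 and 15.3 CPM in V617F MkP, against 81.1, 23.6 and 114 CPM in WT MkP (log2 -3.10 ± 0.91 SE, adjusted p = 0.102). The groups did not overlap, and only DESeq2 among 18 alternatives called it (adjusted p = 0.00287). Cpa3 had 12.4, 20.3 and 46.7 CPM in V617F MkP and 32.4, 79.2 and 58.9 CPM in WT MkP (log2 -1.10 ± 0.78 SE, adjusted p = 0.608). Its groups overlapped through V617F MkP library 3. Gzmb had 0.516, 0.443 and 2.15 CPM in V617F MkP and 3.05, 31.9 and 0 CPM in WT MkP (log2 -3.48 ± 2.11 SE, adjusted p = 0.534). Both the highest and the lowest value were in WT, and without WT MkP library 31 the log2 fold change was -0.52.

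The receptor chains had values in both directions. Ms4a2 had 2.88, 4.99 and 2.69 CPM in V617F MkP, against 15.3, 16.4 and 13.4 CPM in WT MkP (log2 -2.09 ± 1.41 SE, adjusted p = 0.580). Fcer1g had 32.6, 22.9 and 44.8 CPM in V617F MkP, against 65.3, 72.7 and 77.8 CPM in WT MkP (log2 -1.11 ± 0.56 SE, adjusted p = 0.392). For both the groups stood apart, with V617F below. Fcer1a had 24.1, 29.0 and 48.7 CPM in V617F MkP and 14.8, 33.4 and 12.6 CPM in WT MkP, the one member with a positive log2 fold change (0.74 ± 1.18 SE, adjusted p = 0.892), and its groups overlapped.

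Because counts grow with transcript length, the make-up of these transcripts was read as reads per kilobase at the same depth scale (RPKM). In V617F MkP the order was Fcer1g (50.8 ± 16.7 RPKM, SD, n = 3), Fcer1a (33.1 ± 12.7), Cpa3 (18.2 ± 12.4), Mcpt8 (6.82 ± 6.02), Hdc (3.54 ± 2.45), Prss34 (3.03 ± 1.05), Ms4a2 (1.25 ± 0.45) and Gzmb (0.733 ± 0.684). In WT MkP it was Fcer1g (109 ± 9.55 RPKM), Prss34 (57.9 ± 46.4), Cpa3 (39.1 ± 16.1), Hdc (30.4 ± 19.1), Fcer1a (19.8 ± 11.2), Mcpt8 (18.9 ± 10.1), Gzmb (8.23 ± 12.4) and Ms4a2 (5.34 ± 0.52). In WT MkP each neighbouring pair in that order met within its SDs. In V617F MkP the pair of Prss34 and Ms4a2 stood apart by more than the SDs, and the other neighbouring pairs did not. Fcer1a made up 25.2%, 32.99% and 27.4% of the summed RPKM of the 8 genes in V617F MkP libraries 1, 2 and 3, against 6.33%, 9.12% and 4.35% in WT MkP libraries 30, 31 and 32. Prss34 made up 4.25%, 2.20% and 1.88% in V617F MkP, against 14.6%, 31.2% and 10.3% in WT MkP. For both genes these shares did not overlap between genotypes, while the shares of the other genes did. A share also moves with the level of the other genes in the sum. That sum was 93.2, 85.8 and 173 RPKM in V617F MkP libraries 1, 2 and 3. In WT MkP libraries 30, 31 and 32 it was 227, 357 and 282 RPKM. The level of Fcer1a itself overlapped between the genotypes, as given above.

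**Figure D2:**
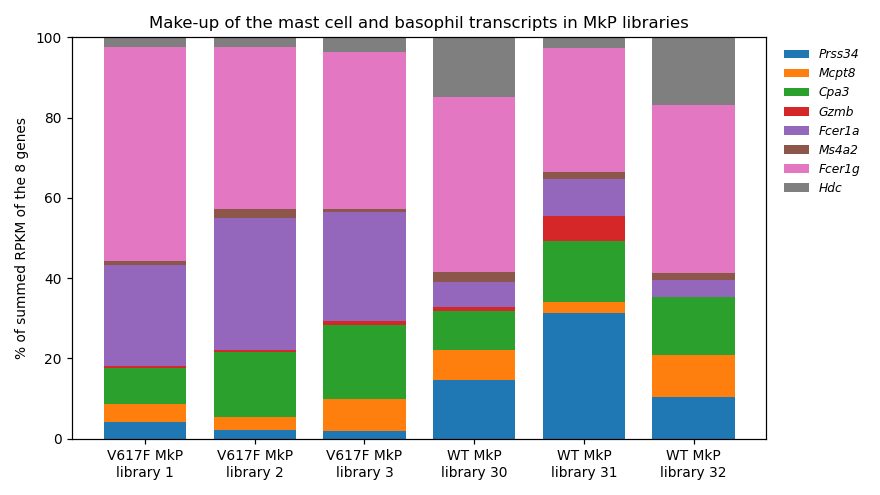
Share of each gene in the summed RPKM of the 8 genes, in percent, in the 3 V617F and 3 WT MkP libraries; each bar is a library and each colour a gene. Fcer1a takes 25.2% to 32.99% in V617F MkP, against 4.35% to 9.12% in WT MkP, and Prss34 takes 1.88% to 4.25% in V617F MkP, against 10.3% to 31.2% in WT MkP.

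Markers of other cell types differed between the same groups. The summed level of 11 granulocyte progenitor and neutrophil genes was 1163 to 2659 CPM in V617F MkP, against 8443 to 12337 CPM in WT MkP, with none of the 11 at 0 in either group. Most of it was Mpo, the granule peroxidase of granulocyte progenitors, at 1062 ± 572 CPM in V617F MkP and 8101 ± 2089 CPM in WT MkP (SD, n = 3 each), which fell in V617F (log2 -2.93 ± 0.62 SE, adjusted p = 0.0367). The 8 eosinophil markers summed to 9.53 to 11.4 CPM in V617F MkP and 25.1 to 93.9 CPM in WT MkP, where Il5ra and Ccr3 were at 0. The 8 erythroid markers summed to 87.0 to 133 CPM in V617F MkP, against 459 to 529 CPM in WT MkP. The part of these cell types in the values of Prss34, Hdc and the other members was not tested. The 7 basophil markers, 4 of them members, summed to 39.5 to 70.0 CPM in V617F MkP and to 96.4 to 194 CPM in WT MkP, where the basophil receptor Cd200r3 and the cytokine Il4 were at 0. Of the 8 mast cell markers, the tryptases Tpsb2 and Tpsab1 and the receptor Mrgprb2 were at 0 in V617F MkP. In WT MkP, Cma1, Mcpt4 and Mrgprb1 were at 0 as well, and Kit, the sort marker, made up most of a sum of 302 to 538 CPM in V617F MkP and 545 to 693 CPM in WT MkP. The chymases Cma1 and Mcpt4 and the tryptases Tpsb2 and Tpsab1 were thus at 0 in WT MkP, where Cpa3, also on the list, stood at 32.4 to 79.2 CPM, and the chymase Cma1 was at 0.727 ± 0.632 CPM in V617F MkP (SD, n = 3). The same 6 mast cell markers were at 0 in both LT-HSC groups. The 11 natural killer and T cell markers, Gzmb among them, summed to 347 to 668 CPM in V617F MkP and 537 to 614 CPM in WT MkP, with Prf1, Cd3e, Cd3g and Cd8a at 0 in both. Few genes made up these sums, and 7 of the 11 were at 0 throughout WT MkP. In WT MkP library 31 only 2 had counts. There Gzmb was 31.9 of 537 CPM, and 1 other gene held the rest.

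**Figure D3:**
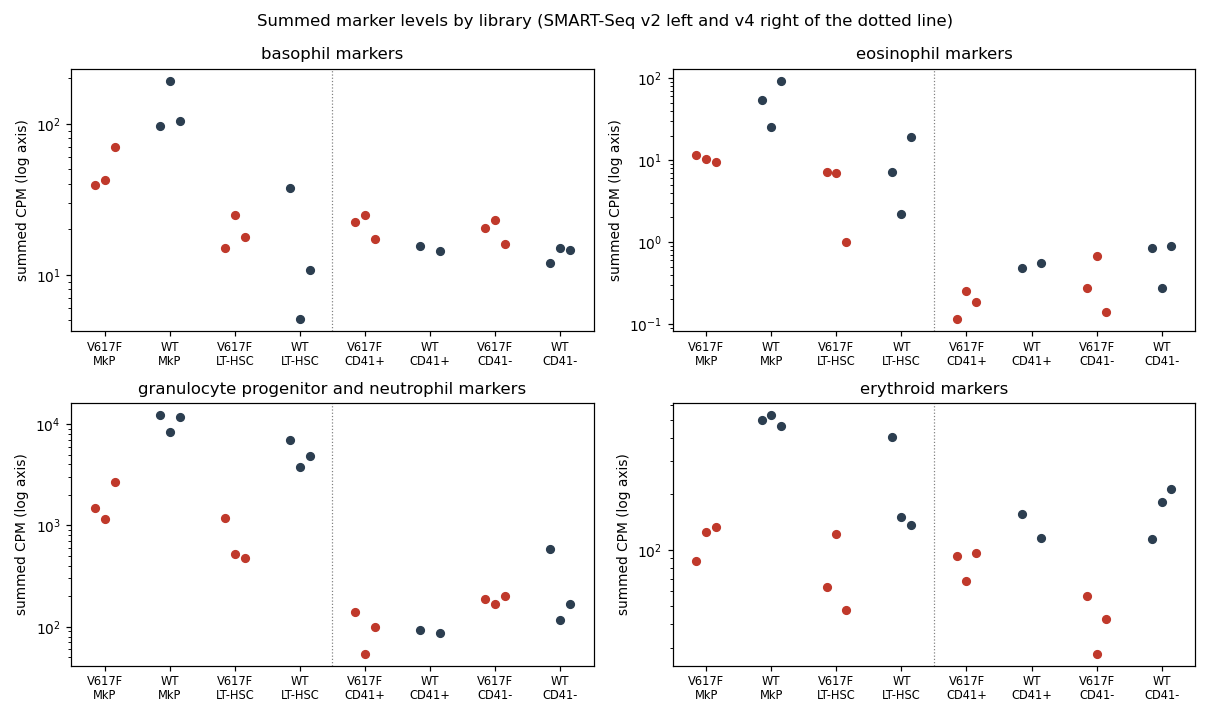
Summed CPM of marker genes of other cell types in every library, on a log axis, V617F in red and WT in dark blue, with SMART-Seq v2 groups left of the dotted line and v4 groups right of it. The granulocyte sum in V617F MkP (1163 to 2659 CPM) lies below WT MkP (8443 to 12337 CPM) and so does the eosinophil sum (9.53 to 11.4 CPM in V617F MkP, 25.1 to 93.9 CPM in WT MkP). The basophil sum holds 4 of the 8 genes described here and is not separate from them.

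In LT-HSC, none of the 8 passed between V617F and WT by edgeR's quasi-likelihood test, where 0.0630% of genes passed. Unadjusted p-values under 0.05 were found for 5 members, DESeq2 called 1 (Fcer1g) and limma-voom none. DESeq2 called 488 genes in all there. The 0.0630% does not apply to these counts, and the share of all genes at an unadjusted p is not given here. Fcer1g had 30.7, 34.6 and 17.0 CPM in V617F LT-HSC, against 382, 92.4 and 74.5 CPM in WT LT-HSC (log2 -2.74 ± 0.59 SE, adjusted p = 0.149). The groups stood apart. Over all single-library omissions its log2 fold change ran from -3.22 to -1.59, the smallest without WT LT-HSC library 30. Fcer1a had 1.74, 1.87 and 2.62 CPM in V617F LT-HSC, against 0, 0 and 0.696 CPM in WT LT-HSC (log2 3.08 ± 1.29 SE, adjusted p = 0.349), so that all V617F LT-HSC libraries were above all WT ones. These were the members without overlap, 1 higher and 1 lower in V617F, where 13.6% of all genes were higher and 5.63% lower without overlap.

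Cpa3 had 4.72, 5.87 and 5.46 CPM in V617F LT-HSC and 53.0, 5.15 and 13.5 CPM in WT LT-HSC (log2 -2.16 ± 0.80 SE, adjusted p = 0.290). The wide WT range came from library 30, and the V617F libraries were close together. Without WT LT-HSC library 30 the log2 fold change was -0.79 and also missed the threshold. Hdc had 3.23, 0.364 and 1.46 CPM in V617F LT-HSC and 5.82, 9.45 and 2.80 CPM in WT LT-HSC (log2 -1.83 ± 0.87 SE, adjusted p = 0.427), which overlapped. Prss34 had 10 reads over the V617F LT-HSC group and 1 over the WT group, Mcpt8 had 7 and 0 and Ms4a2 had 9 and 1. Gzmb had no read in either LT-HSC group. Most of these libraries lay at or under the floor of 3 reads, and none of the 4 passed. The granulocyte markers summed to 478 to 1186 CPM in V617F LT-HSC, against 3752 to 6899 CPM in WT LT-HSC. The monocyte and macrophage markers summed to 490 to 786 CPM in V617F LT-HSC and 516 to 2272 CPM in WT LT-HSC, with library 30 the highest for both lists. Their part in the Fcer1g and Cpa3 values was not tested.

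Whether the V617F effect differed between MkP and LT-HSC was tested as an interaction. None of the 8 passed by edgeR's quasi-likelihood test, where 0.455% of genes passed. At an unadjusted p under 0.05, 3 passed (Prss34, Mcpt8 and Ms4a2), DESeq2 called Prss34 and limma-voom none. DESeq2 called 523 genes in all in this interaction. The 0.455% does not apply to these counts, and the share of all genes at an unadjusted p is not given here. For Prss34 the difference of log2 fold changes was -7.71 ± 1.68 (SE, adjusted p = 0.0747), and it rests on the few LT-HSC reads given above. It passed without WT MkP library 30 (-7.91, adjusted p = 0.0473), and Fcer1a did without WT LT-HSC library 32 (-8.13, adjusted p = 0.0445), against -2.33 with it.

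In the CD41 fractions the proteases Prss34 and Mcpt8 were at or near 0, Gzmb was low and Cpa3 was present. Prss34 had no read in any of the 11 libraries, and Mcpt8 had 3 or fewer reads summed over any group. Gzmb had 0, 0.0498 and 0.0469 CPM in V617F CD41-positive HSC and 0.0489 and 0.0861 CPM in the 2 WT CD41-positive libraries. In CD41-negative HSC it had 0.136, 0.0899 and 0.318 CPM in V617F, against 0.585, 0 and 0.201 CPM in WT. These 3 genes did not pass the filter on low counts and were not tested, which left 5 members among 14467 genes. Cpa3 was present in every library, between 2.95 and 5.89 CPM, with no comparison of fraction or genotype past the threshold. Hdc was between 0.101 and 1.28 CPM.

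Between CD41-positive and CD41-negative HSC, Fcer1a and Fcer1g passed in both genotypes and in opposite directions. In each genotype this was 1 member higher and 1 lower of 5 tested, where 34.3% of genes passed in V617F (16.4% higher, 17.9% lower) and 34.0% in WT (15.7% higher, 18.2% lower). Fcer1a rose in the CD41-positive fraction. It had 13.9, 7.33 and 9.28 CPM in V617F CD41-positive HSC, against 0.781, 0.405 and 0.847 CPM in V617F CD41-negative HSC, a mean 15.01-fold higher (log2 3.87 ± 0.53 SE, adjusted p = 1.95e-04). In WT it had 4.01 and 6.42 CPM in CD41-positive HSC, against 0.266, 0.438 and 1.81 CPM in CD41-negative HSC, 6.21-fold higher (log2 2.61 ± 0.57 SE, adjusted p = 0.00535). No CD41-negative library of either genotype reached any CD41-positive one. The WT call was lost without WT CD41-positive library 4 (log2 2.23, adjusted p = 0.0650) and when WT CD41-negative libraries 1 and 3 were left out together (log2 1.52, adjusted p = 0.0702), an alternative chosen after seeing the data. Without WT CD41-negative library 4, the highest of its group, the log2 fold change was 3.87.

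Fcer1g fell in the CD41-positive fraction. It had 6.43, 5.88 and 5.53 CPM in V617F CD41-positive HSC, against 11.2, 10.0 and 8.97 CPM in V617F CD41-negative HSC (log2 -0.76 ± 0.16 SE, adjusted p = 0.00275). In WT it had 15.7 CPM in both CD41-positive libraries, against 25.4, 21.8 and 25.9 CPM in CD41-negative HSC (log2 -0.63 ± 0.17 SE, adjusted p = 0.0150). The fractions did not overlap in either genotype. Among all genes, 28.4% were higher and 27.7% lower without overlap between the V617F fractions, and 27.4% and 29.3% between the WT fractions. The WT call was lost without WT CD41-positive library 3 (adjusted p = 0.0944) or 4 (adjusted p = 0.109) and in a fit of only the 2 groups (adjusted p = 0.0706), with log2 fold changes of -0.63, -0.63 and -0.60 in that order. Ms4a2 had 0.569, 0.498 and 0.516 CPM in V617F CD41-positive HSC, against 0, 0.0450 and 0.353 CPM in V617F CD41-negative HSC (log2 1.91 ± 0.90 SE, adjusted p = 0.120). The fractions stood apart, and without V617F CD41-negative library 3 the value was 4.38 with an adjusted p of 0.0164. Limma-voom also called it (2.88, adjusted p = 0.0310). In WT, Ms4a2 had 0.0977 and 0.0431 CPM in CD41-positive HSC and 0.160, 0 and 0.201 CPM in CD41-negative HSC, all within 4 reads per library.

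**Figure D4:**
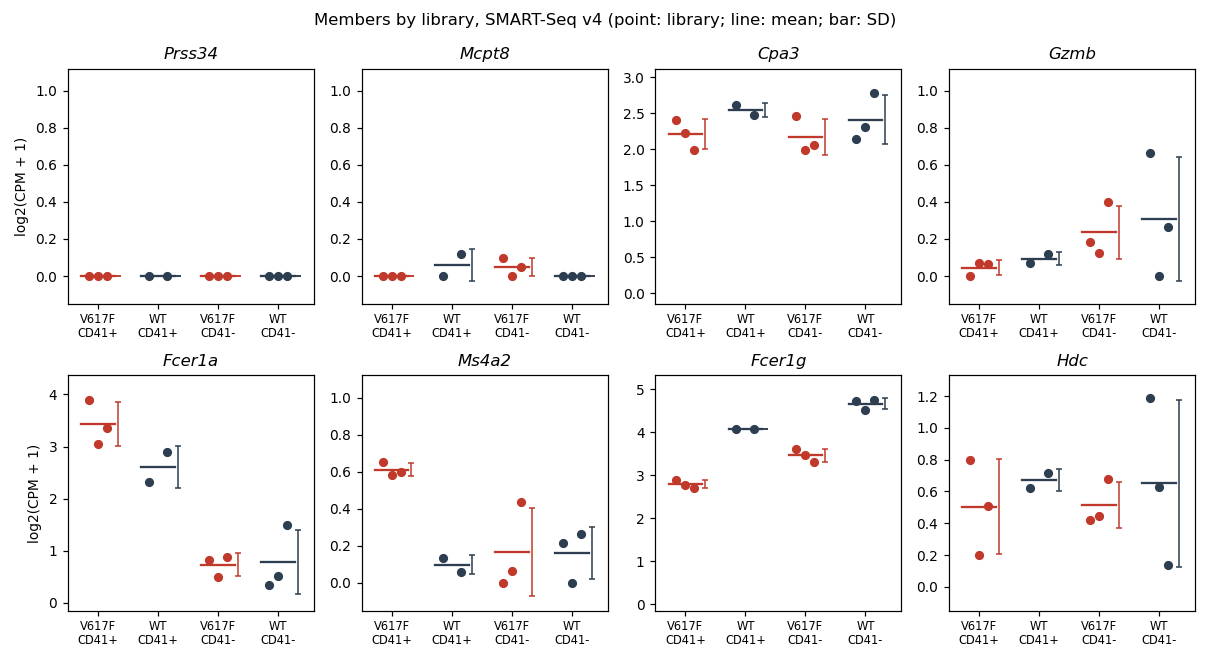
Level of each gene in the CD41-positive (CD41+) and CD41-negative (CD41-) libraries, as log2(CPM + 1), V617F in red and WT in dark blue; points are libraries, lines are means and bars are SD. Fcer1a is higher in both CD41-positive groups, and Fcer1g is lower in V617F in both fractions.

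Between V617F and WT, Fcer1g fell in both CD41 fractions and was the only member of the 5 tested to pass in either. In CD41-positive HSC it had 6.43, 5.88 and 5.53 CPM in V617F, against 15.7 CPM in both WT libraries, 2.64-fold lower by means (log2 -1.40 ± 0.17 SE, adjusted p = 0.00164). There 1.16% of the genes passed and 0.940% passed as lower. In CD41-negative HSC it had 11.2, 10.0 and 8.97 CPM in V617F, against 25.4, 21.8 and 25.9 CPM in WT, 2.42-fold lower (log2 -1.28 ± 0.15 SE, adjusted p = 0.00112), where 13.4% passed and 7.93% passed as lower. The V617F libraries lay below all WT libraries in each fraction. The call held in all 20 alternatives in CD41-positive HSC, with adjusted p-values up to 0.0321, and in all 21 in CD41-negative HSC, with adjusted p-values up to 0.0104. The difference between the fractions in this effect, -0.13 ± 0.23 (SE, adjusted p = 0.846), did not pass. Markers of monocytes and macrophages, which also carry gamma-chain receptors, summed to 333 to 363 CPM in V617F CD41-positive HSC and 375 to 388 CPM in WT CD41-positive HSC. They summed to 404 to 441 CPM in V617F CD41-negative HSC and 407 to 493 CPM in WT CD41-negative HSC. Of the 9 monocyte and macrophage markers, 4 fell and 1 rose in V617F CD41-negative HSC (median log2 -0.98), and none passed in CD41-positive HSC (median -0.12). The 8 erythroid markers summed to 68.5 to 96.1 CPM in V617F CD41-positive HSC, against 115 to 156 CPM in WT CD41-positive HSC, and 3 of the 8 fell. They summed to 27.8 to 56.4 CPM in V617F CD41-negative HSC, against 115 to 213 CPM in WT CD41-negative HSC, and 7 of the 8 fell. The part of either list in the Fcer1g values was not tested.

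Fcer1a had 13.9, 7.33 and 9.28 CPM in V617F CD41-positive HSC, against 4.01 and 6.42 CPM in WT CD41-positive HSC (log2 0.96 ± 0.52 SE, adjusted p = 0.556). The groups did not overlap. In CD41-negative HSC it had 0.781, 0.405 and 0.847 CPM in V617F and 0.266, 0.438 and 1.81 CPM in WT (adjusted p = 0.732), which overlapped. Ms4a2 had 0.569, 0.498 and 0.516 CPM in V617F CD41-positive HSC, against 0.0977 and 0.0431 CPM in WT (log2 2.83 ± 1.21 SE, adjusted p = 0.413). It rests on 31 reads over the V617F group and 3 over the WT group. Cpa3 averaged 3.64 ± 0.66 CPM (SD, n = 3) in V617F CD41-positive HSC and 4.85 ± 0.40 CPM (n = 2) in WT CD41-positive HSC (adjusted p = 0.685). In CD41-positive HSC, 4 of the 5 members had groups without overlap, 2 higher and 2 lower in V617F, where 23.9% of all genes were higher and 17.8% lower without overlap. In CD41-negative HSC 1 did, Fcer1g, and 14.3% of all genes were lower without overlap.

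The interaction of genotype and fraction called none of the 5 members and 0.00% of the genes by edgeR's quasi-likelihood test. No member had an unadjusted p under 0.05, and DESeq2 and limma-voom called none either. For Fcer1a the difference was 1.26 ± 0.78 (SE, adjusted p = 0.583), so the larger fold change of Fcer1a between the fractions in V617F was not shown to differ from that in WT.

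**Figure D5:**
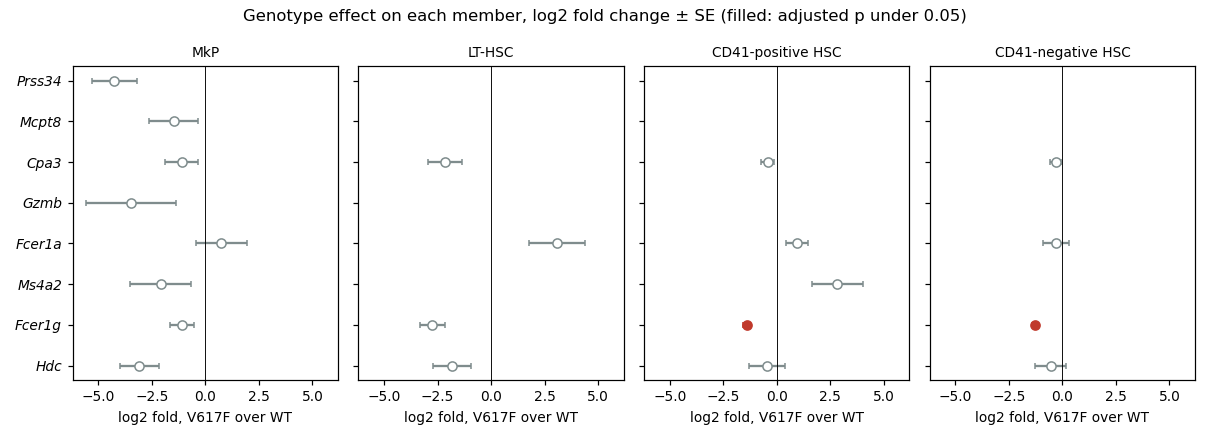
Log2 fold change of V617F over WT with its SE for each gene in the 4 populations, filled red where the adjusted p is under 0.05; genes not tested, at 0 in a whole group, or under 0.2 CPM in both groups are not drawn. Fcer1g is left of 0 in all 4 panels and filled in both CD41 fractions, and the MkP panel has 7 of 8 genes left of 0.

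Across the 4 populations, Fcer1g had a lower mean in V617F than in WT in each of them. Per length, Fcer1g led the 8 genes in 7 of the 8 groups. In V617F CD41-positive HSC, Fcer1a (9.91 ± 3.29 RPKM, SD, n = 3) stood next to Fcer1g (9.04 ± 0.69 RPKM), within the SD. Cpa3 came next there at 2.503 ± 0.454 RPKM, apart from both, and Ms4a2, Hdc and the proteases were each below 0.2 RPKM.

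The wider pathway was read from 6 lists of genes of these cells. Of 16 genes of the IgE receptor and its signalling, all tested, none passed between V617F and WT MkP (median log2 -0.11, against 0.08 over all genes), and 5 passed as higher in WT MkP than in WT LT-HSC, as did 2.32% of all genes. Beside Fcer1a and Ms4a2 these were the kinases Btk and Syk and the adaptor Lat2. Btk averaged 225 ± 3.38 CPM in WT MkP and 55.0 ± 14.5 CPM in WT LT-HSC (SD, n = 3 each; log2 2.03 ± 0.29 SE, adjusted p = 0.00184). In V617F none of the 16 passed between MkP and LT-HSC. Of 16 proteases and their partners, 7 were tested and 3 passed as higher in WT MkP than in WT LT-HSC (Prss34, Mcpt8 and Ctsg, cathepsin G). Prss34, Mcpt8 and Ms4a2, counted in these lists, passed the filter on low counts through MkP, as said above. Of 12 transcription factors, none passed between V617F and WT MkP (median -0.39), and Gata1, the megakaryocyte and erythroid factor that also serves mast cells, was higher in WT MkP than in WT LT-HSC (log2 2.86 ± 0.52 SE, adjusted p = 0.00681). In that comparison 1 of the 12 passed as higher and 1 as lower (median 0.05), against 2.32% and 6.58% of all genes.

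Of 9 cytokines (7 tested) and 20 receptors and surface proteins (16 tested), 4 rose in V617F MkP: the receptor Il18r1, the cytokines Il4 and Csf1 and the surface receptor Cd200r4, where 1.62% of all genes tested rose. All 4 had no read in WT MkP, so a change there could only be a rise. Il18r1 averaged 3.02 ± 1.25 CPM in V617F MkP (SD, n = 3), at least 36.5-fold higher (adjusted p = 0.0157), and Il4 0.913 ± 0.207 CPM, at least 11.03-fold higher (adjusted p = 0.0318). These 4 were also lower in WT MkP than in WT LT-HSC, by at least 188-fold for Il4. That Il4 mean, 15.5 CPM in WT LT-HSC, came mostly from library 30. The 7 basophil markers, Il4 among them, summed to 37.4 CPM in WT LT-HSC library 30, against 5.07 and 10.7 CPM in libraries 31 and 32. Without library 30 the bound for Il4 would be smaller. The WT MkP libraries, as said, detected the fewest genes, and the part of that in the zeros was not tested. The interaction of genotype and population passed for Il18r1 (adjusted p = 0.0448) and for no other gene of the 6 lists.

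In the CD41 fractions, the gene of these lists that passed with Fcer1g between V617F and WT in CD41-positive HSC was Csf2rb, the common beta chain of the IL-3 and GM-CSF receptors. It averaged 30.7 ± 4.11 CPM in V617F (SD, n = 3) and 8.80 ± 3.18 CPM in WT (n = 2; log2 1.80 ± 0.30 SE, adjusted p = 0.0136). In CD41-negative HSC, 3 of the 16 IgE receptor genes passed as higher in V617F and 1, Fcer1g, as lower, against 5.48% and 7.93% of all genes. Over the 6 lists the smallest adjusted p-values after Fcer1g belonged to Serpinb1a, Zfpm1, Bhlhe40 and Csf2rb. Serpinb1a, an inhibitor of granule serine proteases, averaged 187 ± 25.8 CPM in V617F and 82.9 ± 21.2 CPM in WT (SD, n = 3 each; log2 1.17 ± 0.17 SE, adjusted p = 0.00339). Zfpm1, the cofactor of GATA1, fell (log2 -1.85 ± 0.30 SE, adjusted p = 0.00618), and Bhlhe40 (0.95) and Csf2rb (1.27) rose.

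Between the fractions, Alox5, the 5-lipoxygenase that starts leukotriene synthesis in mast cells, rose with Fcer1a in the CD41-positive part. It averaged 34.6 ± 11.2 CPM in V617F CD41-positive HSC and 2.64 ± 1.10 CPM in V617F CD41-negative HSC (SD, n = 3 each; log2 3.69 ± 0.39 SE, adjusted p = 3.18e-05). Gata1 rose in the CD41-positive part of V617F (log2 2.87 ± 0.31 SE, adjusted p = 3.72e-05) and WT (1.77 ± 0.32, adjusted p = 0.00204), as did Alox5 in WT (3.07 ± 0.44, adjusted p = 4.94e-04). The 12 transcription factors as a list did not rise with it. In V617F, 2 passed as higher and 3 as lower in the CD41-positive part (median log2 -0.20). In WT, 1 passed as higher and 4 as lower (median -0.35). Csf1, the integrin chain Itgb7 and Csf2rb were lower in the WT CD41-positive part and the tetraspanin Cd9 higher, with adjusted p-values of 1.83e-04, 2.15e-04, 4.30e-04 and 2.29e-04 in that order. In V617F CD41-positive HSC the IgE receptor list had 3 genes higher and 5 lower of 16, where 16.4% of all genes passed as higher and 17.9% as lower. The WT fractions gave the same counts, with 15.7% of all genes higher and 18.2% lower.

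The genes whose pattern was most like the mean profile of the 8 members over the 12 MkP and LT-HSC libraries were Ifi209 (Pearson r = 0.968), Alg8 (0.958), Tdp1 (0.954), Stip1 (0.943), Metap2 (0.937) and Chchd3 (0.928). Ifi209, an interferon-inducible gene, averaged 2.35 ± 1.59 CPM in V617F MkP and 28.9 ± 8.79 CPM in WT MkP, with 0.0139 CPM in V617F LT-HSC and none in WT LT-HSC. Over the 11 libraries of the CD41 fractions, with 5 members, they were Kctd13 (0.954), Eno3 (0.937), Kti12 (0.931), Mt1 (0.927), Bcl2 (0.920) and Lrrc8c (0.917). These are descriptions over libraries that share groups and depth, drawn from 11887 and 12104 candidate genes. No gene was among the 6 nearest in both protocols.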

How the data were processed

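RNA of 23 sorted samples was isolated with PicoPure and amplified with SMART-Seq v2 or v4 before Nextera XT library preparation, per the labels. STAR 2.5.2a, mm10, R 3.4.2 and limma are named in the submitters' processing notes. How reads were assigned to genes is not given in the sources used here. Values are raw counts for each gene, deposited as whole numbers beside Entrez IDs and a length in bases per the file headers. There were 0 columns that belonged to no sample.

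Each protocol was analysed on its own in R 4.3.3 with edgeR 4.0.16, using TMM scaling and the filterByExpr filter, which kept 14281 genes with v2 and 14467 with v4. The model had a mean for every group, and contrasts were tested with the quasi-likelihood F test, so all groups of a protocol share the spread. P-values were adjusted by Benjamini-Hochberg over all genes of a contrast, with a threshold of 0.05. The SE of a log2 fold change is its size over the root of F. A fold against a group at 0 is taken against 3 counts per library. The members, gene lists and alternatives were chosen with earlier results of these data known. All members are named, with the 4 other list genes of smallest adjusted p that passed in each comparison and the 6 genes per protocol nearest in pattern, by Pearson r of log2(CPM + 1) with the members' mean. The remaining list genes named were chosen after their values were seen. The fit was tested on simulated data. Alternatives were DESeq2 1.42.0, limma-voom (limma 3.58.1), RLE scaling, testing without the filter or only genes at 5 CPM in 3 libraries, only the groups compared, omission of each library, sex as a covariate or omission of the male mouse in the CD41 fractions, and the replicate number as a block. In V617F, the CD41-positive and CD41-negative libraries with the same number deviated together from their group means (r = 0.431, 0.551 and 0.410 over genes), so these numbers pair the libraries. Promoter windows are from RefSeq, GRCm38.p6, and all 8 members matched by symbol.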

Additional observations from a re-analysis of the deposited data

How the results depend on the processing

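Of 1170 alternative values for members, 1078 kept the direction and the side of the threshold, 17 lost the call, 32 gained it and 43 changed sign, all of the last in values that had not passed. Fcer1g between genotypes in both CD41 fractions, Fcer1a and Fcer1g between the V617F fractions, and Prss34 between WT MkP and WT LT-HSC kept their calls under every alternative run. The count of members called under DESeq2 was 2 between genotypes in MkP, 1 in LT-HSC, 4 between MkP and LT-HSC in V617F, 6 in WT (Gzmb added) and 1 in the interaction; under limma-voom it was 1 between genotypes in MkP, 2 between MkP and LT-HSC in V617F and 3 between the V617F CD41 fractions (Ms4a2 added). Fitting only the groups compared gave 1 between genotypes in MkP, 7 between MkP and LT-HSC in V617F, 1 in WT and 1 between the WT CD41 fractions, and leaving out WT CD41-negative libraries 1 and 3 together, chosen after seeing the data, gave 1 there too. Omitting single libraries gave 0 to 1 between genotypes in MkP, 0 to 0 in LT-HSC, 0 to 2 between MkP and LT-HSC in V617F, 4 to 5 in WT, 0 to 1 in their interaction, 1 to 1 between genotypes in each CD41 fraction, 2 to 3 between the V617F fractions, 0 to 2 between the WT fractions and 0 to 0 in the last interaction. The cause was not tested.

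Sign changes in values that had not passed were these log2 fold changes. Between the V617F fractions, Hdc was 0.0090 under DESeq2 and 0.29 without the male mouse, and Cpa3 -0.083 without the male mouse. Between genotypes in CD41-negative HSC, limma-voom gave 0.094 for Fcer1a and -0.51 for Ms4a2, and omission of WT libraries 1 and 3 gave -0.56 for Ms4a2 and 2.04 for Hdc. Between the WT fractions, Hdc was 0.46 under limma-voom, and without WT libraries 1 and 3 Cpa3 was -0.29 and Hdc 2.49. In the CD41 interaction, Hdc was -0.65 under limma-voom, and without those libraries Cpa3 was 0.32 and Hdc -2.50. Omitting single libraries gave ranges of -1.91 to 5.29 for Ms4a2 between genotypes in LT-HSC and -0.32 to 1.54 for Cpa3 in the MkP interaction. In CD41-negative HSC the genotype values ran from -0.73 to 0.96 for Fcer1a, -2.33 to 0.73 for Ms4a2 and -1.06 to 0.42 for Hdc. Between the V617F fractions they ran from -0.092 to 0.27 for Cpa3 and -0.59 to 0.40 for Hdc, between the WT fractions from -0.0062 to 0.40 for Cpa3 and -0.62 to 0.90 for Hdc, and in the CD41 interaction from -0.36 to 0.12 for Cpa3, -0.0047 to 1.68 for Fcer1a and -0.89 to 0.60 for Hdc.

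With the replicate number as a block, Fcer1a was 3.89 between the V617F fractions, where the numbers pair the libraries, and kept its call. Elsewhere nothing in the labels shows that samples share more than a number. Within WT, r ran from -0.0381 to 0.0743. Between genotypes it was -0.105 in CD41-positive HSC, and -0.164 and -0.0420 in CD41-negative HSC. A low r cannot exclude a shared origin, and with 2 WT CD41-positive libraries the deviations mirror each other. Whether such samples are paired is therefore not settled, and the block is not read as a pairing there. With it, Fcer1g was -1.44 between genotypes in CD41-positive HSC and -1.27 in CD41-negative HSC, and kept both calls. It gave 5 members called between MkP and LT-HSC in WT, with Gzmb gained (adjusted p = 0.0223) and Hdc lost (0.0553). It changed the sign of Fcer1a (0.62) between genotypes in CD41-negative HSC and of Cpa3 (-0.0031) and Hdc (1.003) between the WT fractions. In the CD41 interaction it changed that of Cpa3 (0.051) and Hdc (-1.07). No paired analysis was possible for the genotype comparisons in LT-HSC and MkP or for MkP against LT-HSC in V617F, because the groups share no numbers.

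The number of all genes called moved more: between genotypes it ran over all alternatives from 46 to 1137 in MkP (250 as reported), 0 to 488 in LT-HSC (9), 32 to 520 in CD41-positive HSC (168) and 145 to 6020 in CD41-negative HSC (1940), and between MkP and LT-HSC from 31 to 2972 in V617F (156) and 14 to 2803 in WT (1271). It ran from 3333 to 6585 between the V617F fractions (4960), 1216 to 7082 between the WT fractions (4917), 0 to 523 in the MkP interaction (65) and 0 to 1766 in the CD41 interaction (0). DESeq2 gave the 1137, 488, 2803 and 523 among these. A fit of only the groups compared gave 2972 between MkP and LT-HSC in V617F and 14 in WT. Low counts limit what can be said of Prss34, Mcpt8, Gzmb and Ms4a2 outside MkP, where most libraries held fewer than 10 reads of each. The part of library depth in these counts was not tested.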
